A study of Xenopus laevis with 28 samples.

Results

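The Otx family of homeobox genes was followed through the development of *Xenopus laevis* as the 4 gene models named otx1.L, otx1.S, crx.L and crx.S, of 45831 models in the deposited table. The members were chosen by name, as rows called otx1, otx2 or crx before the suffix L or S, which marks the long or the short of the 2 subgenomes of this allotetraploid frog. The copies of a gene in these subgenomes are called homeologs. No row used here had the name otx2 (0 rows), so otx2 is not analysed here. The model identifiers are Xelaev18026512m (otx1.L), Xelaev18028484m (otx1.S), Xelaev18039352m (crx.L) and Xelaev18042551m (crx.S), and RefSeq lists otx5 among the synonyms of both crx copies.

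Otx proteins are transcription factors of the paired class whose homeodomain carries a lysine at the position that sets DNA preference, as in Goosecoid. In vertebrates they mark the head end of the embryo, where they act in the forebrain, the midbrain and the sense organs. Crx acts in photoreceptors and in the pineal gland of mammals, and the frog gene, also called otx5, is known from the gastrula organizer, the anterior neural plate and later the eye and pineal gland. Maternal otx1 RNA is known from frog oocytes.

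PolyA RNA of the J strain was sequenced from whole animals without treatment, so each value averages over all cells, and fewer cells of a type and less RNA per cell cannot be told apart. Unfertilized eggs and 10 Nieuwkoop-Faber stages, 8 and 9 (blastula), 10.5 and 12 (gastrula), 15 and 20 (neurula), 25 and 30 (tailbud), and 35 and 40 (late tailbud and tadpole), came from 2 clutches, called Taira and Ueno, each sampled with 1 library at each stage. Where a pair of values is given for a stage, the Taira library comes first. The Ueno set held 3 further libraries of oocytes (classes 1-2, 3-4 and 5-6) and 3 of a second series (stages 8, 10 and 35), with 1 library each, which entered no test. Values are TPM, a transcript abundance scaled by transcript length and by the total of the library, which keeps no read counts, so the depth of each library is unknown and a listed 0 sets no limit. The libraries are not strand-specific, so antisense reads cannot be told apart. The processing notes name the tool RSEM, but its settings for sharing reads between the similar L and S copies are not given in the sources used here. The L to S ratios rest on that sharing.

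The library labelled stage 40 Ueno went against its label and was left out of the fits reported here, so stage 40 rests on the Taira library. The 16 egg and oocyte marker models, among them ccnb5, cpeb1 and btg4, summed to 5060 TPM in it, to 4682 and 7089 TPM in the eggs and to 9.73 TPM in stage 40 Taira. Its 16 tailbud marker models summed to 255 TPM, against 4280 TPM in stage 40 Taira, and its rank correlation was 0.938 with egg Ueno and 0.703 with stage 40 Taira. In the fit without it, 15 of 15 tested egg and oocyte models were lower in the zygotic than in the maternal phase, and 14 of 15 tailbud models were higher, where 34.9% of all models were lower and 40.2% higher. Its otx1.L and otx1.S values, 6.09 and 0.820 TPM, lay next to those of egg Ueno, 6.76 and 0.840 TPM, and both crx copies were listed at 0.

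The otx1 and crx copies had separate courses through development. The otx1 copies were present in oocytes, low in the egg, higher in the blastula and low again in the tadpole. In the staged Ueno libraries otx1.S was highest at stage 12 (15.5 TPM), above stages 8 and 9 (7.41 and 10.2 TPM). The crx copies were at or near 0 until stage 8, led the 4 models in the gastrula, were low at stage 25 and were higher again in the late tailbud. All 4 models passed the filter (at least 1 TPM in at least 2 of 21 libraries) and differed among the 11 stages (F-test of a limma fit with clutch as a block, adjusted p from 2.85e-08 in crx.S to 0.000451 in otx1.S). Of all 28171 models tested, 91.6% passed this F-test, so 4 of 4 is near the background. The pattern of the L copy followed that of the S copy, with a Pearson correlation of log2(TPM + 1) of 0.889 for otx1 and 0.985 for crx over the 21 libraries, which share stages and clutches. Between otx1 and crx copies the same measure ran from 0.243 to 0.363.

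**Figure D1:**
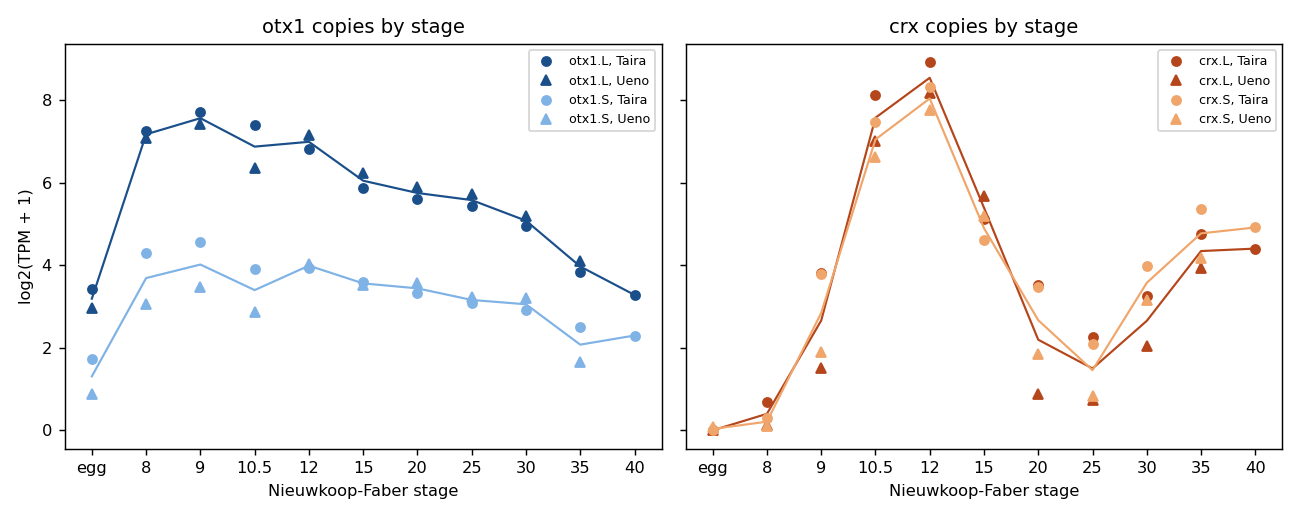
Level of otx1 (left) and crx (right) copies as log2(TPM + 1) against stage, with circles for the Taira clutch, triangles for the Ueno clutch and lines through the stage means. The means of the otx1 copies run from a low egg value over a maximum at stage 9 (189 TPM for otx1.L) to low tadpole values. The highest Ueno point of otx1.S is at stage 12 (15.5 TPM). The crx copies have a maximum at stage 12 (384 TPM for crx.L) and a later rise.

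The maternal course of otx1 was seen first in the oocytes. In the oocyte classes 1-2, 3-4 and 5-6, otx1.L was at 124, 120.06 and 348 TPM and otx1.S at 12.7, 12.6 and 22.3 TPM. In the egg, otx1.L was at 9.75 TPM (Taira) and 6.76 TPM (Ueno), and at stage 8 it was at 152 and 135 TPM. Both stage 8 values lay far above both egg values, and the stage 8 library of the second series, at 171 TPM, lay above them too. The S copy was at 2.34 and 0.840 TPM in the egg, at 18.8 and 7.41 TPM at stage 8 and at 8.65 TPM in the second series. Its groups did not overlap either, although its stage 8 libraries differed more from each other than those of otx1.L. The share of all models without overlap was not computed, and 32.8% of all models tested were called higher from egg to stage 8.

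Within the Ueno set the level of otx1.L + 1 TPM was 44.96-fold lower in the egg than in oocytes of classes 5-6 and then 17.5-fold higher at stage 8 than in the egg. For otx1.S these folds were 12.7 and 4.57. With 1 library at each point these are differences between libraries, with no replicate check. The RNA was polyA-selected, so a change in the amount of RNA and a change in its polyA tail cannot be told apart. This holds for the step from egg to stage 8 in both clutches too. Among the 15947 models with at least 5 TPM in 1 of the 3 libraries, 17.4% were lower in the egg by over 8-fold, 13.2% were higher at stage 8 by over 8-fold, and 8.35% did both, as otx1.L did. At stage 8 otx1.L was at 135 TPM, below the 348 TPM of oocyte classes 5-6 in the same set.

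**Figure D2:**
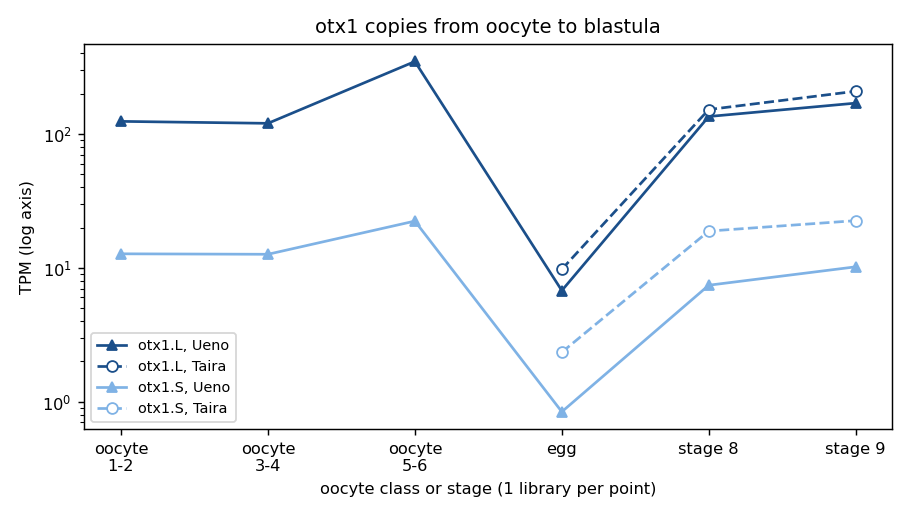
TPM of the otx1 copies (log axis) from oocyte classes to stage 9, with 1 library per point, triangles for Ueno and open circles for Taira. The egg libraries are the lowest points of each line (6.76 and 9.75 TPM for otx1.L), between oocytes and stage 8.

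From egg to stage 8 both otx1 copies rose and neither crx copy was called. The log2 change was 3.98 ± 0.33 (SE of the limma fit, n = 2 per stage, adjusted p = 4.99e-06) for otx1.L and 2.38 ± 0.42 (limma adjusted p = 0.000457) for otx1.S. These are differences of log2(TPM + 1), which understate the change of low genes. Within the clutches the change of otx1.L was 3.83 (Taira) and 4.13 (Ueno), and that of otx1.S was 2.57 and 2.19. Of all models tested, 32.8% were called higher and 3.71% lower at this step, with a median of 0.306. This split depends on the scaling: 89.8% of the called models were higher in TPM as deposited, 39.3% after median-of-ratios scaling and 50.1% after quantile normalization, and the median of all models was then 0 and -0.0829. After these scalings otx1.L was still called (2.71 after median-of-ratios scaling), while otx1.S was not (1.36 and 0.81).

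From stage 8 to stage 9, across the onset of zygotic transcription, otx1.L was at 208 and 170 TPM at stage 9 and otx1.S at 22.5 and 10.2 TPM. For otx1.L this was the highest of the 11 stages from egg to stage 40, though below oocyte classes 5-6, with a mean of 189 ± 27.2 TPM (SD, n = 2). Its stage 9 libraries lay above the stage 8 libraries of both clutches. The stage 8 library of the second series, at 171 TPM, lay between the stage 9 libraries. The change from stage 8 was not called, at 0.39 ± 0.33 for otx1.L and 0.33 ± 0.42 for otx1.S. At this step 1.13% of all models were called higher and 0.00355% lower.

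After stage 9 the stage means of otx1.L were lower. Its libraries were at 167 and 81.3 TPM at stage 10.5, at 112 and 142 TPM at stage 12, at 57.2 and 74.4 TPM at stage 15 and at 47.6 and 58.8 TPM at stage 20. They were at 42.3 and 51.9 TPM at stage 25, at 30.03 and 35.9 TPM at stage 30 and at 13.3 and 16.2 TPM at stage 35, and the stage 40 Taira library was at 8.73 TPM. In order of the mean, stages 9, 8, 12, 10.5, 15, 20, 25, 30, 35, 40 and egg followed each other, and the libraries overlapped in 5 of the 10 neighbouring pairs of this order. These were stages 8 and 12, 12 and 10.5, 15 and 20, 20 and 25, and 40 and egg, and the stage 40 library lay between the egg libraries.

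The S copy of otx1 had lower levels throughout. It was at 14.1 and 6.35 TPM at stage 10.5, at 14.4 and 15.5 TPM at stage 12, at 11.1 and 10.5 TPM at stage 15 and at 8.97 and 10.8 TPM at stage 20. It was at 7.45 and 8.46 TPM at stage 25, at 6.52 and 8.19 TPM at stage 30, at 4.64 and 2.16 TPM at stage 35 and at 3.92 TPM in the stage 40 Taira library. In order of the mean its stages ran 9, 12, 8, 15, 10.5, 20, 25, 30, 40, 35 and egg, and libraries overlapped in 8 of 10 neighbouring pairs, all but 20 and 25, and 30 and 40.

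From stage 12 to stage 20, otx1.L fell by 1.24 ± 0.33 on the log2 scale (limma adjusted p = 0.00934), with -1.22 in the Taira and -1.26 in the Ueno clutch, and otx1.S was at -0.55 ± 0.42 (not called). Of all models 18.7% were called higher and 18.1% lower at this step. The call of otx1.L was lost without stage 12 Ueno (-1.04) or stage 20 Taira (-1.07). Over the longer interval from stage 12 to stage 35, an interval chosen after seeing the values, otx1.L fell by 3.02 ± 0.33 and otx1.S by 1.91 ± 0.42 (limma adjusted p = 4.17e-06 and 0.00144), where 32.1% of all models were called lower and the median was -0.156. From stage 20 to 35, likewise chosen later, otx1.L fell by 1.78 ± 0.33 and otx1.S by 1.36 ± 0.42 (limma adjusted p = 0.00111 and 0.0228), with 20.3% of models called lower. The call of otx1.S at this interval was lost without stage 20 Ueno (-0.99) or stage 35 Ueno (-1.14). The single steps 9 to 12 (-0.57 and -0.03 for otx1.L and otx1.S), 20 to 30 (-0.67 and -0.39) and 30 to 35 (-1.11 and -0.98) called neither copy. From stage 9 to 12 the sign of both turned after median-of-ratios scaling, to 0.41 and 0.88, where the median of all models moved from -0.343 to 0.0518.

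The crx copies were first above 1 TPM at stage 9. As for otx1, polyA selection means that the amount of their RNA and its polyA tail cannot be told apart. In the 3 oocyte libraries crx.L was between 0 and 0.160 TPM and crx.S between 0 and 0.060 TPM. In the egg crx.L was listed at 0 in both clutches and crx.S at 0 and 0.05 TPM. At stage 8 crx.L was at 0.600 and 0.0900 TPM and crx.S at 0.240 and 0.0800 TPM, and both were at 0.0300 TPM in the second series. No maternal library held either copy at 1 TPM. At stage 9 crx.L was at 13.04 and 1.85 TPM and crx.S at 12.8 and 2.74 TPM, all above the stage 8 values, with the Taira library the higher for both copies.

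From stage 8 to 9, crx.S rose by 2.64 ± 0.49 on the log2 scale (limma adjusted p = 0.0126), among the 1.13% of models called higher at this step, and crx.L was at 2.26 ± 0.59 (adjusted p = 0.132 in the same limma fit, not called). Whether the copies differed at this step was not tested. Within clutches crx.S changed by 3.48 (Taira) and 1.79 (Ueno), and crx.L by 3.13 and 1.39. The call of crx.S did not hold without stage 8 Taira (2.31), stage 8 Ueno (2.96) or stage 9 Taira (2.02), nor after median-of-ratios scaling (2.00).

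In the gastrula crx.L and crx.S were high among the models of the table. At stage 10.5 crx.L was at 281 and 128 TPM and crx.S at 177 and 97.4 TPM. At stage 12 crx.L was at 482 and 287 TPM and crx.S at 321 and 215 TPM, the highest values of either copy in any library. At that stage 0.565% of the models in the Taira library and 1.23% in the Ueno library lay above crx.L, and 0.962% and 1.75% lay above crx.S. At stage 10.5 these shares were 0.978% and 3.41% for crx.L and 2.05% and 4.86% for crx.S. The stage 10 library of the second series, at 175 TPM for crx.L and 139 TPM for crx.S, fell between the values of the stage 10.5 libraries of both clutches.

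From stage 9 to stage 12, crx.L rose by 5.88 ± 0.59 and crx.S by 5.20 ± 0.49 on the log2 scale (limma adjusted p = 2.76e-06 and 1.56e-06), in a step at which 13.2% of models were called higher and 35.5% lower. After median-of-ratios scaling this split changed from 27.1% to 54.3% of called models higher, and the crx copies were still called (6.64 and 5.99). On the log2 scale, most of the rise lay in the first part of the step. In TPM the means at stages 9, 10.5 and 12 were 7.4, 204 and 384 for crx.L and 7.78, 137 and 268 for crx.S. From stage 9 to 10.5, an interval chosen after seeing the values, crx.L was higher by 4.91 ± 0.59 and crx.S by 4.20 ± 0.49 (limma adjusted p = 7.92e-05 and 5.56e-05), where 6.34% of models were called higher and 9.38% lower. For otx1.L that interval gave -0.69 ± 0.33, called only without stage 10.5 Taira (-1.25).

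At the neurula stages the crx copies came down from this peak. At stage 15 crx.L was at 33.7 and 50.1 TPM and crx.S at 23.5 and 35.4 TPM, at stage 20 crx.L was at 10.5 and 0.830 TPM and crx.S at 10.2 and 2.62 TPM, and at stage 25 crx.L was at 3.82 and 0.660 TPM and crx.S at 3.27 and 0.770 TPM. From stage 12 to 20, crx.L fell by 6.35 ± 0.59 and crx.S by 5.37 ± 0.49 on the log2 scale (limma adjusted p = 3.50e-06 and 2.74e-06). In the Taira clutch the change was -5.40 for crx.L and -4.85 for crx.S, and in the Ueno clutch -7.30 and -5.90.

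A later rise of both copies followed in the tailbud. At stage 30 crx.L was at 8.57 and 3.14 TPM and crx.S at 14.9 and 7.96 TPM. At stage 35 crx.L was at 26.1 and 14.2 TPM, with 10.3 TPM in the second series, and crx.S at 40.2 and 17.2 TPM, with 21.9 TPM in the second series. The stage 40 Taira library was at 20.2 TPM for crx.L and 29.2 TPM for crx.S. Neither the step from 20 to 30 (0.46 and 0.91 for crx.L and crx.S) nor that from 30 to 35 (1.69 and 1.2) called a copy. From stage 20 to 35, chosen after seeing the values, crx.L rose by 2.15 ± 0.59 and crx.S by 2.10 ± 0.49 on the log2 scale (limma adjusted p = 0.0136 and 0.00493), where 13.4% of models were called higher and the median was -0.281. The call of crx.L did not hold without stage 20 Ueno (1.25) or stage 35 Ueno (2.03), and that of crx.S did not hold without stage 20 Ueno (1.63).

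In order of the mean, the stages of crx.L ran 12, 10.5, 15, 40, 35, 9, 30, 20, 25, 8 and egg, with overlapping libraries in 4 of 10 neighbouring pairs (40 and 35, 9 and 30, 30 and 20, 20 and 25). Those of crx.S ran 12, 10.5, 15, 40, 35, 30, 9, 20, 25, 8 and egg, with overlap in 5 pairs (15 and 40, 40 and 35, 30 and 9, 9 and 20, 20 and 25). Each crx copy was higher in the Taira library at 8 of 10 stages sampled in both clutches, with a median difference of 0.98 for crx.L and 0.84 for crx.S in log2(TPM + 1). At stages 9 and 20 crx.L differed between the clutches by 2.30 and 2.65. The otx1.L libraries were higher in Taira at 4 of 10 stages, with a median difference of -0.25.

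**Figure D3:**
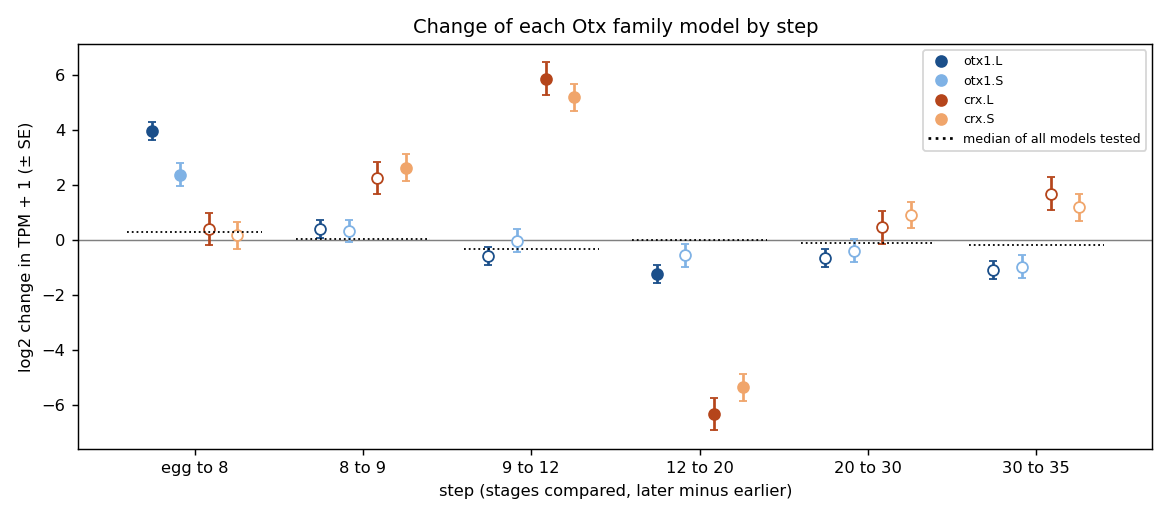
Change of log2(TPM + 1) from the earlier to the later stage for each model at 6 steps, with bars for the SE of the limma fit, filled points for an adjusted p under 0.05 and dotted lines at the median of all models tested. The otx1 copies are called at egg to 8 (3.98 for otx1.L), while the crx copies are called upward at 9 to 12 (5.88 for crx.L) and downward at 12 to 20 (-6.35).

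Between the maternal phase (egg and stage 8, 4 libraries) and the zygotic phase (stages 9 to 40, 17 libraries), the crx copies differed far more than the otx1 copies. The zygotic mean was higher by 4.11 ± 0.33 on the log2 scale for crx.L and 4.30 ± 0.27 for crx.S (limma adjusted p = 6.93e-08 and 5.76e-09), with 4.57 and 3.68 for crx.L in the Taira and Ueno clutches. For otx1.L it was higher by 0.50 ± 0.18 and for otx1.S by 0.70 ± 0.23 (limma adjusted p = 0.0239 and 0.0149). Within the Taira and Ueno clutches the difference was 0.31 and 0.99 for otx1.L and 0.32 and 1.22 for otx1.S. For all models the zygotic mean of the Taira clutch includes stage 40 and that of the Ueno clutch does not. The values of the 2 clutches thus rest on unlike sets of stages. All 4 models were called higher, a call that 40.2% of all models had, while 34.9% were called lower, and the median of all models was 0.205. The calls of crx held in all 34 alternatives run, with values from 2.47 to 6.45 for crx.L.

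The phase difference of the otx1 copies depended on which maternal stage was taken. Against the egg alone, otx1.L was higher in the zygotic phase by 2.49, and against stage 8 alone it was lower, at -1.49 (called in both). For otx1.S these values were 1.89 (called) and -0.49 (not called). The calls against both stages together were lost without egg Ueno (0.38 for otx1.L and 0.58 for otx1.S) or stage 8 Ueno (0.46 and 0.48), that of otx1.L also without stage 8 Taira (0.54). Without stage 40 Taira the difference of otx1.L was 0.80.

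Which gene supplied most of the summed TPM of the 4 models changed with the stage. As otx2 is not among them, the shares and the sum do not describe the whole Otx family. In the maternal libraries crx made up between 0% and 0.654% of the summed TPM of the 4 models, and otx1.L between 80.7% and 94.7%. At stage 9 the crx share was 10.1% and 2.48%, at stage 10.5 it was 71.7% and 72.0%, and at stage 12 it was 86.4% and 76.1%. At stage 25 the share was back at 12.5% and 2.31%, with otx1.L at 74.4% and 84.0%, and at stage 35 crx held 78.7% and 63.2%. Both clutches thus passed from an otx1 majority to a crx majority between stages 9 and 10.5, back by stage 20 and to crx again by stage 35. The summed level was at its maximum at stage 12, at 929 and 659 TPM, and in the egg it was 12.1 and 7.65 TPM.

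**Figure D4:**
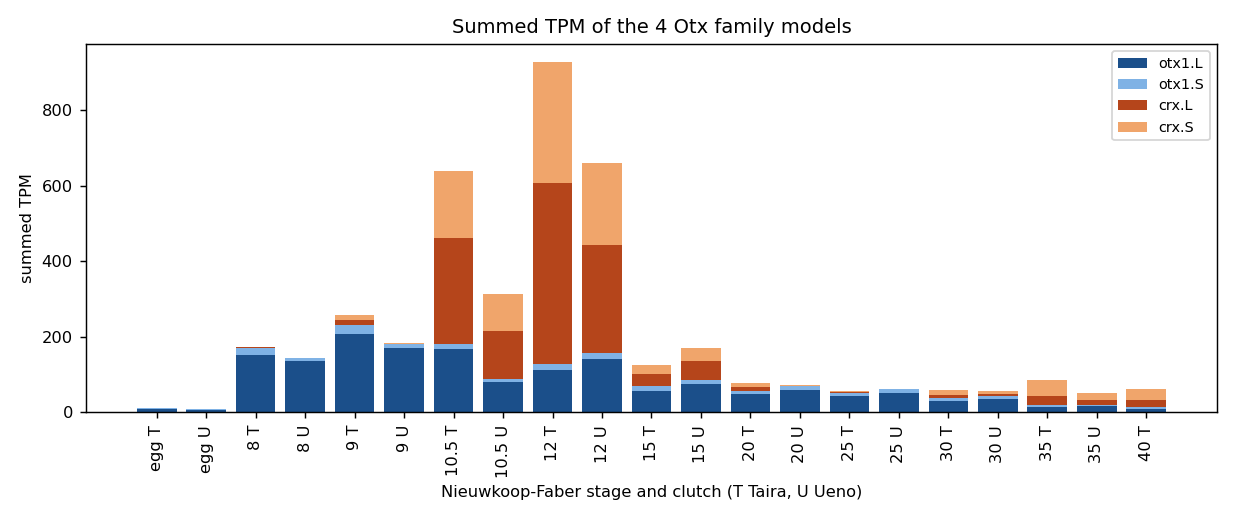
Summed TPM of the 4 models in each of the 21 libraries of the staged series, stacked by model, with T for Taira and U for Ueno. The crx copies fill most of the bars at stages 10.5 and 12 (71.7% to 86.4% of the sum), and otx1.L most of those at stages 8 and 9.

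The L copy of otx1 was above the S copy in 21 of 21 libraries. The mean of log2(L TPM + 1) minus log2(S TPM + 1) over the stages was 2.51 ± 0.07 (SE, limma adjusted p = 6.65e-14), a 5.70-fold difference. Among 6651 homeolog pairs the median was 0.202, 51.7% of pairs were called higher in L and 35.2% higher in S, and 410 pairs had a larger L excess than otx1. In TPM the L copy was 8.09 and 18.2 times the S copy at stage 8, 11.8 and 12.8 times at stage 10.5, 5.31 and 5.42 times at stage 20 and 4.61 and 4.38 times at stage 30. At stage 35 the libraries went apart, with 2.87 times in Taira and 7.48 times in Ueno. The stage 35 library of the second Ueno series, at 3.265 times, lay nearer to Taira. In the stage 40 Taira library it was 2.23 times, and in the oocyte libraries between 9.51 and 15.6 times. The maternal mean of the log2 ratio was 2.67 ± 0.15, with 35.5% of pairs called higher in L and 30.6% in S, and the zygotic mean was 2.47 ± 0.08, with 51.7% and 34.4%, and their difference of -0.20 ± 0.17 was not called (limma adjusted p = 0.312), while 38.6% of pairs moved towards L and 30.2% towards S.

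For crx neither copy led over the whole course. The L copy was higher in 11 and the S copy in 9 of 21 libraries, and the mean log2 ratio was -0.08 ± 0.06 (limma adjusted p = 0.23). In the 6 libraries of stages 10.5, 12 and 15 the L copy was higher in 6 of 6, by 1.31 to 1.58 times in TPM. In the 5 libraries of stages 30, 35 and 40 the S copy was higher in 5 of 5, with L between 0.394 and 0.830 times S. The second series showed the same order, with L at 1.26 times S at stage 10 and 0.469 times S at stage 35. The windows of stages 10.5 to 15 and 30 to 40 were chosen with these ratios known. The share of all pairs with such a switch was not computed. At stages 9, 20 and 25, L was at 1.02, 1.03 and 1.17 times S in Taira and at 0.675, 0.317 and 0.857 times S in Ueno. Both crx copies were near 0 in the maternal phase, and their log2 ratio there was 0.08 ± 0.13. The zygotic mean was -0.11 ± 0.07 (limma adjusted p = 0.123) and was called without stage 20 Taira (-0.16) or without stage 35 Ueno (-0.15).

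The ratio of L to S moved towards S in both pairs from the gastrula (stages 10.5 and 12) to the late stages (30, 35 and 40), a contrast chosen after seeing the values. For crx the log2 ratio fell by 1.18 ± 0.19 (limma adjusted p = 9.06e-05), with -1.24 in the Taira and -1.09 in the Ueno clutch, from 0.62 and 0.40 to -0.62 and -0.68. For otx1 it fell by 1.54 ± 0.21 (limma adjusted p = 2.44e-05), with -1.72 and -1.08 within the clutches, and the L copy was still the higher. In both pairs the late mean of the Taira clutch includes stage 40 and that of the Ueno clutch does not. Of all pairs, 29.1% moved towards S and 34.7% towards L in this contrast, with a median of 0.119.

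**Figure D5:**
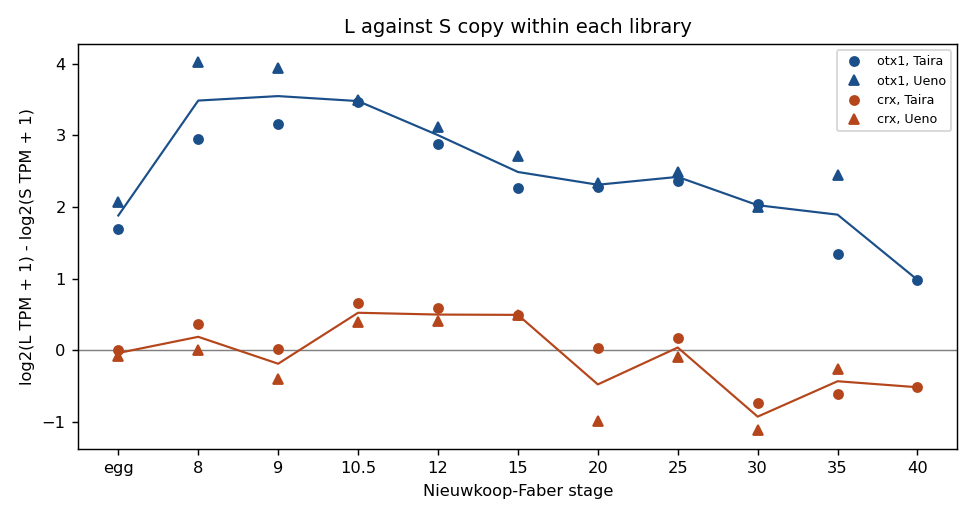
Difference of log2(TPM + 1) between the L and the S copy within each library against stage, with circles for Taira, triangles for Ueno and lines through the stage means. All otx1 points lie above 0, and the crx points lie above 0 at stages 10.5 to 15 and below 0 at stages 30 to 40.

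Genes active in the tissues where Otx factors act were read from lists chosen by function, with earlier results of these data known. The counts of these lists are thus a description. Of the head organizer genes (17 models tested), 16 were higher in the zygotic than in the maternal phase and 0 lower, with a median of 2.60, where 40.2% of all models were called higher and 34.9% lower with a median of 0.205. They included the secreted Wnt antagonist dkk1.L (3.86 ± 0.20, limma adjusted p = 9.71e-10), its homeolog dkk1.S (3.53 ± 0.20) and the forkhead genes foxa4.S (3.64 ± 0.34) and foxa4.L (3.57 ± 0.25). From stage 9 to 12, 16 of these 17 models rose, and from stage 12 to 20, 15 fell and 0 rose, with medians of 3.73 and -2.50, in the same directions as both crx copies. The background at these steps was 13.2% called higher and 18.1% called lower.

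Genes of the anterior neural plate, eye and forebrain (19 models) were called higher in the zygotic phase in 19 of 19 cases, against 40.2% of all models. They included the eye field genes six3.S (2.66 ± 0.22), six3.L (2.66 ± 0.22) and rax.L (2.41 ± 0.24) and the forebrain gene lhx5.L (2.58 ± 0.21). From stage 12 to 20, 11 of these rose and 2 fell, with a median of 1.53, where 18.7% of all models were called higher and 18.1% lower. Calls of single models at this step are not given here. Of the named genes, six3.L was at 21.5 and 5.26 TPM at stage 12 and at 24.3 and 13.2 TPM at stage 20. For six3.S these values were 23.9 and 6.90, then 28.8 and 12.07 TPM, and for rax.L 7.33 and 1.31, then 25.4 and 11.25 TPM. The values of lhx5.L went down, from 62.8 and 58.85 to 6.93 and 1.91 TPM, in the direction of both crx copies. Of the genes around the midbrain-hindbrain boundary, 17 of 17 tested models (of 18) were higher in the zygotic phase, against the same 40.2%, led by irx1.L (4.07 ± 0.22), irx3.S (3.58 ± 0.15), irx2.L (3.57 ± 0.20) and irx1.S (3.45 ± 0.24).

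The cement gland, a sticky organ at the front of the frog head, was represented by 4 tested models of 5, and all 4 were higher in the zygotic phase, a call that 40.2% of all models had. The secreted disulphide isomerases agr2.L (5.72 ± 0.33), agr2.S (5.68 ± 0.21) and agr3.L (1.11 ± 0.22) and the homeobox gene pitx1.L (3.41 ± 0.18) were called. While the crx copies fell, agr2.L was at 59.5 and 7.43 TPM at stage 12 and at 645 and 640 TPM at stage 20.

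Photoreceptor and pineal genes, the setting in which Crx is best known, passed the filter in 16 of 23 models. Of these 16, 10 were higher and 2 lower in the zygotic phase, against 40.2% and 34.9% of all models. From stage 30 to 35, 4 of these rose and 0 fell, where 2.09% of all models were called higher, with a median of 0.61. They were the rod transducin gnat1.L (2.42 ± 0.49, limma adjusted p = 0.0133), the retinal opsin rgr.L (2.34 ± 0.30), the cone phosphodiesterase subunit pde6h.S (1.64 ± 0.26) and the photoreceptor factor nrl.S (0.97 ± 0.18). In the fitted libraries rgr.L and pde6h.S reached 1 TPM only at stages 35 and 40, and nrl.S only from stage 30. Outside stage 8 Ueno, gnat1.L reached it only at stages 35 and 40. All 4 thus needed late libraries to pass the filter, so their count is no independent support for a late rise. At stage 30 gnat1.L was at 0.200 and 0.160 TPM, and at stage 35 at 7.78 and 3.52 TPM. Stage 40 Taira held 39.5 TPM of it. This model was not absent from all early libraries, as stage 8 Ueno held 3.27 TPM, near its stage 35 Ueno value. Stage 8 Taira was listed at 0. Among the second Ueno series, gnat1.L was listed at 0 for stage 8 and at 2.95 TPM for stage 35. In stage 8 Ueno, rgr.L (0.87 TPM) and pde6h.S (0.86 TPM) also lay above their stage 30 Ueno values (0.63 and 0.15 TPM), while nrl.S (0.06 TPM) did not. At stages 10.5 and 12 Ueno, gnat1.L was at 0.76 and 0.52 TPM. The source of these early Ueno values was not tested. From stage 20 to 30, nrl.L (1.35 ± 0.26) and nrl.S (1.11 ± 0.18) rose and the retinoid isomerase gene rpe65.S (-1.77 ± 0.39) fell, at a background of 7.19% higher and 4.7% lower. The highest values of rpe65.S were at stage 15, at 273 and 170 TPM, and at stage 35 it was at 15.1 and 11.5 TPM. With the library labelled stage 40 Ueno included, no model of the table was called higher from stage 30 to 35. The crx copies were at 3.14 to 14.9 TPM at stage 30, when gnat1.L was below 1 TPM. At that stage nrl.L was at 3.85 and 2.73 TPM and nrl.S at 1.23 and 1.27 TPM. Both nrl copies were called from stage 20 to 30, and neither crx copy was (0.46 ± 0.59 for crx.L and 0.91 ± 0.49 for crx.S). Whether the nrl and crx copies differed at this step was not tested.

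Maternal localized and germ plasm genes were mostly lower in the zygotic phase. Of 13 tested models (of 15), 11 were called lower and 0 higher, with a median of -3.24, against 34.9% and 40.2% of all models. They included spire1.S (-5.94 ± 0.21), the germ cell genes dnd1.L (-5.40 ± 0.21) and nanos1.L (-4.93 ± 0.26) and grip2.L (-4.36 ± 0.21). At stage 12 dnd1.L was at 1.55 and 1.06 TPM, down from 86.0 and 78.9 TPM at stage 9, while nanos1.L was still at 46.9 and 131 TPM and otx1.L at 112 and 142 TPM.

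Of 13727 named models with a maximum of at least 10 TPM, the 5 closest to otx1.L over the 21 libraries were the Mediator subunit med26.S (r = 0.955), the ubiquitin ligase subunit skp2.L (0.947), fbxl14-like.S (0.943), rbm42.L (0.942) and fgd4.L (0.941). Those closest to otx1.S were the kinase gene cdk12.L (0.909), LOC101731508-like.1 (0.909), zbtb8a.1.1 (0.908), plekhg4.S (0.897) and cdk12.S (0.891). Closest to crx.L were the ubiquitin ligase march8.L (0.928), the cationic amino acid transporter slc7a3.L (0.917), the pyruvate dehydrogenase kinase pdk4.S (0.915), the secreted Wnt antagonist frzb.S (0.912) and LOC100497331-like.L (0.911). For crx.S they were the kinase sgk1.L (0.905), pdk4.S (0.902), the homeobox gene hhex.L (0.893), march8.L (0.887) and slc7a3.L (0.882). These values describe likeness over stages that the libraries share.

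In the RefSeq annotation of the assembly Xenopus_laevis_v10.1, which is not the build of the deposited table, mdh1, ugp2 and b3gnt2 lie within 3 protein-coding genes of both otx1 copies, and prss16 and bckdha within 3 of both crx copies. Of the 24 neighbours so defined, 14 were matched by name to 1 model each. Their correlations with the member beside them ran from -0.203 to 0.437 in 13 of 14, and peli1.S, near otx1.S, was at 0.817.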

How the data were processed

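The table deposited by the authors gives TPM for every gene model in 28 libraries, and no value was rescaled for the main results. RSEM 1.2.19 and BWA 0.7.10 are named in the submitters' processing notes. Per the labels, the cDNA set was JGIv18pV2 and libraries were polyA-selected and not strand-specific. Settings are not given in the sources used here.

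From these values, log2(TPM + 1) of the 28171 models with TPM of at least 1 in at least 2 of 21 libraries was modelled by stage plus a term for clutch in limma 3.58.1 under R 4.3.3. The fit left 9 residual degrees of freedom, and variances were moderated along the mean level. Tests were two-sided, adjusted by Benjamini and Hochberg over all models within each contrast and called under 0.05. Log2 ratios of L to S were fitted likewise, with variances moderated to a common value, over 6651 pairs with a summed TPM of at least 2 in at least 2 libraries. Stage 40 rests on 1 library. The p-values rest on the spread left after the stage and clutch terms, pooled over the stages, with 2 clutches sampled.

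The titles carry the names Taira and Ueno with a number, and the pairing by clutch is from the design text of the series. Clutch and anything else that differed between the Taira and Ueno sets cannot be told apart. The differences between clutches correlated across models with a median of 0.416 over 45 pairs of stages (0.170 to 0.879), over 0.1 in 45 of 45. Members and the 9 gene lists were chosen with earlier results of these data known (1 list is not reported here), as was the decision to leave out the library labelled stage 40 Ueno. Up to 4 called models with the largest change were named per list, in the phase contrast or, for photoreceptor genes, in steps 20 to 30 and 30 to 35, and likewise the 5 models closest to each member. Alternatives changed the pseudocount (to 0.1 or 5), dropped the filter or raised it to 5 TPM, and applied median-of-ratios scaling or quantile normalization. Others were no replicate block, no moderation along the mean, added libraries, other phase definitions, a minimum of 10 TPM for pairs and each library left out. The fits were tested on simulated data.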

Additional observations from a re-analysis of the deposited data

Results flagged for a closer look

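The clutches moved in opposite directions in 2 cases. From stage 9 to 12, otx1.S changed by -0.61 in the Taira clutch and by 0.56 in the Ueno clutch on the log2 scale. From stage 20 to 30, crx.L changed by -0.26 in the Taira clutch and by 1.18 in the Ueno clutch. Each value rests on 1 library per stage, and the difference between the clutches was not tested.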

How the results depend on the processing

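Of 482 member and ratio values recomputed without leaving out a library, 450 kept their direction and their side of the threshold and 32 did not. Both crx copies stayed called in the phase contrast under all 34 alternatives and at steps 9 to 12, 12 to 20, 9 to 10.5 and 12 to 35 under all 14, as did otx1.L from egg to stage 8. The otx1 ratio of L to S (mean, maternal and zygotic) and both ratio changes from gastrula to late stages stayed called under all 28. Where a value lost its call or sign, the cause was not tested. The phase difference of otx1.L was not called with a pseudocount of 5 (0.37), quantile normalization (0.52), the library labelled stage 40 Ueno included (0.48) or stage 9 left out (0.26), and was -1.49 against stage 8 alone. That of otx1.S was not called in the first 3 of these (0.35, 0.61 and 0.64) and was -0.49 against stage 8 alone. Median-of-ratios scaling gave 1.36 for otx1.S from egg to 8, -1.17 for otx1.S from 20 to 35 and 2.00 for crx.S from 8 to 9, none called, and turned otx1.L (0.41) and otx1.S (0.88) from 9 to 12. Quantile normalization gave -0.97 for otx1.L from 12 to 20, 0.81 for otx1.S from egg to 8, -1.26 for otx1.S from 20 to 35 and 1.69 for crx.S from 8 to 9, none called, and turned otx1.S from 9 to 12 (0.93). A pseudocount of 5 ended the call of crx.S from 8 to 9 (1.19) and turned the zygotic minus maternal otx1 ratio (0.024). Without the replicate block, and likewise with the library labelled stage 40 Ueno included, the values from 20 to 35 (-1.36 for otx1.S, 2.15 for crx.L, 2.10 for crx.S) and crx.S from 8 to 9 (2.64) were unmoved but no longer called, and leaving out the block changed no call in the other 46 of 50 results. Adding the second series called the zygotic crx ratio (-0.16). Leaving out single libraries, where a lone remaining library is assumed to vary like the other stages, gave phase differences of 0.38 to 0.80 for otx1.L and 0.48 to 0.93 for otx1.S, and -1.44 to -1.04 for otx1.L from 12 to 20. For otx1.S it gave -0.12 to 0.77 from 8 to 9, -0.38 to 0.33 from 9 to 12, -0.79 to 0.015 from 20 to 30 and -1.74 to -0.99 from 20 to 35. For crx.L it gave -0.18 to 0.98 from egg to 8, -0.44 to 1.35 from 20 to 30 and 1.25 to 3.04 from 20 to 35. For crx.S it gave -0.30 to 0.65 from egg to 8, 2.02 to 3.25 from 8 to 9 and 1.63 to 2.58 from 20 to 35, and for the zygotic crx ratio -0.16 to -0.056. TPM keep no read counts, so the precision of low values such as crx in the egg is unknown. The counts of models called over the whole table moved by over 1.5 times at each step. From egg to 8, 9250 were called higher, and 3601 after quantile normalization, while 1045 were called lower, and 5831 after median-of-ratios scaling. From 8 to 9 the count higher was 319, and 133 without stage 8 Ueno. From 9 to 12, 3725 were higher and 10014 lower, and 6481 and 5452 after median-of-ratios scaling. Without the replicate block, 5277 higher from 12 to 20 became 3216, 5086 lower became 2526, 2025 higher from 20 to 30 became 1127 and 1325 lower became 437. From 30 to 35, 588 higher and 256 lower became 0 and 7 in limma with the library labelled stage 40 Ueno included, where 677 higher and 993 lower had an unadjusted p under 0.05, so the photoreceptor calls at that step did not hold with it.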
